A study of Homo sapiens with 9 samples.

Results

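Genes for matrix metalloproteases (MMP), ADAM and ADAMTS proteases and tissue inhibitors of metalloproteases (TIMP) were examined in SKMEL28, an established human melanoma cell line. They were taken by symbol: MMP, ADAM or ADAMTS followed by a number, or TIMP1 to TIMP4. This gave 67 of the 48162 genes in the count table, namely 22 MMP, 22 ADAM, 19 ADAMTS and 4 TIMP genes. RNA was sequenced in 9 libraries, 3 for each of 3 groups. The shCont cells carried a lentiviral short hairpin RNA against GFP, the shp16 cells a hairpin against p16, the product of CDKN2A, and the shp16+shATR cells hairpins against both p16 and the kinase ATR. Cells of each group were selected with puromycin at 1 µg/ml for 3 days and grown in DMEM with 5% FBS. The p16 hairpin was a single one, and which of the ATR hairpins of the study was sequenced is not stated. The study describes its mRNA values of the gene LSS as 1 experiment with 3 technical replicates. Sequencing is the only RNA assay in its methods. No source used here says that the 3 libraries of a group came from separate infections. Every p-value therefore measures the spread between these libraries, which may be wholly technical, and not the spread between repeated experiments.

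MMPs are zinc-dependent proteases that are made as inactive proforms and cut collagens and other components of the extracellular matrix once their prodomain is removed. Most are secreted, and the membrane-type MMPs stay at the cell surface. ADAMs are membrane proteins, several of which shed the outer part of other surface proteins, while ADAMTS proteases are secreted and cut proteoglycans, procollagens and other matrix proteins. TIMPs bind the active site of MMPs and of some ADAM and ADAMTS proteases. In melanoma this system is known for its part in invasion through the dermis.

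Libraries held 17314662 to 23588174 counts. The replicate 1 libraries of shCont and of shp16 stood apart from the others of their group. The measure was the SD of the log2 difference from the mean of the other libraries of the group. It was 0.461 in shCont replicate 1, against 0.251 and 0.301 in the others of shCont. In shp16 replicate 1 it was 0.304, against 0.203 and 0.206 in the others of shp16. The shp16+shATR libraries had 0.174 to 0.208. The 0.301 of shCont replicate 3 was taken against a mean that includes shCont replicate 1. Pairs of libraries were also compared by the chi-square of their count differences, averaged over genes. It was 35.9 and 35.3 for shp16 replicate 1 against the others of shp16, and 1.92 between those. For shCont replicate 1 it was 65.9 and 80.2 against the others of shCont, and 4.99 between those. Pairs of shp16+shATR libraries had 2.90 to 9.45. Values without shCont replicate 1, or without both, are given beside many printed results of members that moved by over 1.5 times or changed their call without them. A result printed without such values was not thereby stable. For log2 fold changes near 0 that changed sign, ranges with libraries left out are given at the end. CDKN2A had 121, 91.0 and 81.0 FPKM (fragments per kilobase of gene length, scaled to library size) in shCont, 57.1, 74.8 and 79.8 with the p16 hairpin and 64.5, 71.2 and 63.1 with both hairpins. Its log2 fold change in shp16 was −0.48 ± 0.16 (SE), with an adjusted p of 0.0723 by edgeR's quasi-likelihood test, which missed the threshold of 0.05. This size rested on the replicate 1 libraries: it was −0.26 without that of shCont (adjusted p = 0.0681) and −0.16 without both (0.0817), so its size depended on them and none of the 3 passed. ATR had 5.34, 11.8 and 11.8 FPKM in the control, 10.6, 10.4 and 10.6 with the p16 hairpin and 4.84, 4.92 and 4.89 with both, a log2 fold change of −1.12 ± 0.22 between the last groups (adjusted p = 0.0128). The ATR call was lost without shp16 replicate 1 (0.0554) or any of the 3 shp16+shATR libraries (0.0577 to 0.0707). All 7 melanocyte markers were over 1 FPKM in every group. Their summed level ran from 4792 to 5414 FPKM in shCont, from 2528 to 4719 in shp16, which lay wholly below, and from 3996 to 4912 in shp16+shATR. Among them the mean level of PMEL, the highest, was 3269, 2305 and 2666 FPKM and that of S100B 583, 365 and 582 in the same order. DCT and TYR were also lower in shp16 (377 and 117 FPKM) than in shCont (392 and 133). MLANA, MITF and SOX10 were higher in shp16 (347, 150 and 309) than in shCont (327, 143 and 304). In shp16 against shCont 1 of the 7 was called, lower. Without replicate 1 of both groups 2 were called higher and 1 lower. Of the 6 leukocyte markers, PTPRC and CD3E were at 0 in every group and none had a mean over 1 FPKM. Their summed level ran from 0.106 to 0.682 FPKM over the libraries. LYZ was the highest, with means of 0.372, 0.385 and 0.195 FPKM in shCont, shp16 and shp16+shATR. Of the 4 keratinocyte markers, 3 were called higher in shp16, where 7.23% of all genes tested were. KRT10, the highest of them, moved little, with means of 12.1, 13.1 and 13.8 FPKM in shCont, shp16 and shp16+shATR. KRT1 and KRT5 were at 0 in shCont and at mean levels of 2.24 and 0.930 FPKM in shp16, and the summed level of the 4 keratinocyte markers ran from 9.74 to 14.6 FPKM in the control, from 13.7 to 23.5 with the p16 hairpin and from 14.1 to 19.7 with both. Of the 6 fibroblast markers, 1, LUM, was over 1 FPKM in every group, and it made up most of the summed level of 8.35 to 15.2 FPKM. The mean level of COL1A1 was 0.0231 FPKM in shCont and 0.106 in shp16, that of COL3A1 0.00765 and 0.0831 and that of DCN 0.0634 and 0.207. Of the 4 fibroblast markers tested in shp16 against shCont, 0 were called (2 at an unadjusted p under 0.05), with a median log2 fold change of 1.85, while 2 were higher without shCont replicate 1 and all 4 without replicate 1 of both groups. The part of other cells in the results was not tested, and in RNA from a whole culture fewer cells of a type and less RNA per cell cannot be told apart.

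The 250 bases before the start of 4 genes that the results turn on are shown first, so that the letters stand beside the values: MMP14, which fell with the p16 hairpin, ADAM19, which rose, and the inhibitors TIMP1 and TIMP3. They are RefSeq promoters of build GRCh38.p14, written 5′ to 3′ on the strand of the gene, and capitals mark GC boxes, GGGCGG on either strand. The regions are chr14:22836335-22836584 (plus strand) for MMP14, chr5:157575776-157576025 (minus strand) for ADAM19, chrX:47582186-47582435 (plus strand) for TIMP1 and chr22:32801455-32801704 (plus strand) for TIMP3.
MMP14: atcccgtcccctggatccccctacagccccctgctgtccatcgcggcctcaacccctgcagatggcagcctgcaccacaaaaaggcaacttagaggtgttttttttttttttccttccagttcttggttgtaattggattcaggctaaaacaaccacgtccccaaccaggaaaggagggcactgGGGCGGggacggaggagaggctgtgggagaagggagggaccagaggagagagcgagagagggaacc
ADAM19: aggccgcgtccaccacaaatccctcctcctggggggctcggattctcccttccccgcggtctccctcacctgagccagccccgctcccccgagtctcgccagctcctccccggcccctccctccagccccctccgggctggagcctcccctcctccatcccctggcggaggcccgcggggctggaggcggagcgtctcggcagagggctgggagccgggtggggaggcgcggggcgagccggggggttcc
TIMP1: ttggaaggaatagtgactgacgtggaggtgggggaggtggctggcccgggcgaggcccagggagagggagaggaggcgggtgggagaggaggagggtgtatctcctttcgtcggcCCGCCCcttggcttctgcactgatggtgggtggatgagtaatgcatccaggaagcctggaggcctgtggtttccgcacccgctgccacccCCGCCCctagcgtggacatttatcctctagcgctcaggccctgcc
TIMP3: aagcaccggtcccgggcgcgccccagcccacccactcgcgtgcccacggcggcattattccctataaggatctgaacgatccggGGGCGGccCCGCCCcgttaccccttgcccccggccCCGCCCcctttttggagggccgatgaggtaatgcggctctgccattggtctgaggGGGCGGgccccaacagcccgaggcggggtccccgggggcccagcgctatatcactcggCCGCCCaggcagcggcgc
MMP14 held 1 GC box, TIMP1 held 2 and TIMP3 held 5, and ADAM19 held none, although its 250 bases had 76.4% G and C against 56.8% in MMP14. The RefSeq table had promoters for 19 of the 30 members tested. MMP1, MMP2, MMP3 and TIMP2 were among those without one, so the motif counts say nothing of them. Of the 19, 16 held a GC box, as did 42.6% of all 35116 promoters in windows of the same length. The 19 belong to genes that passed the count filter, while the 35116 were not chosen by expression, so the shares here are of unlike sets. The median share of G and C over all 35116 was 58%. The TATA box TATAAA was in 1 of the 19, MMP8, against 10.7% of all promoters. The AP-1 site TGANTCA was in none of the 19, against 6.57% of all, and the E2F site TTTNNCGC was in 1, ADAM8, against 5.92%. Motifs were searched on both strands, and a match is a description of the letters, not of a bound site.

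Of the 67 genes, 30 had enough counts to be tested (9 MMP, 10 ADAM, 8 ADAMTS and 3 TIMP genes), 27 had some counts but too few, and 10 had none. The tests therefore say nothing of 37 members. Among the genes with too few counts, ADAM12 had the highest total, 83 over the 9 libraries, and MMP25 the highest mean level, 0.0923 FPKM. MMP9, a gelatinase often measured in melanoma, had 1 count in all, and TIMP4 had 2. In FPKM, which allows for gene length, 21 members were over 1 on the mean of the 9 libraries, 11 over 10 and 5 over 100.

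**Figure D1:**
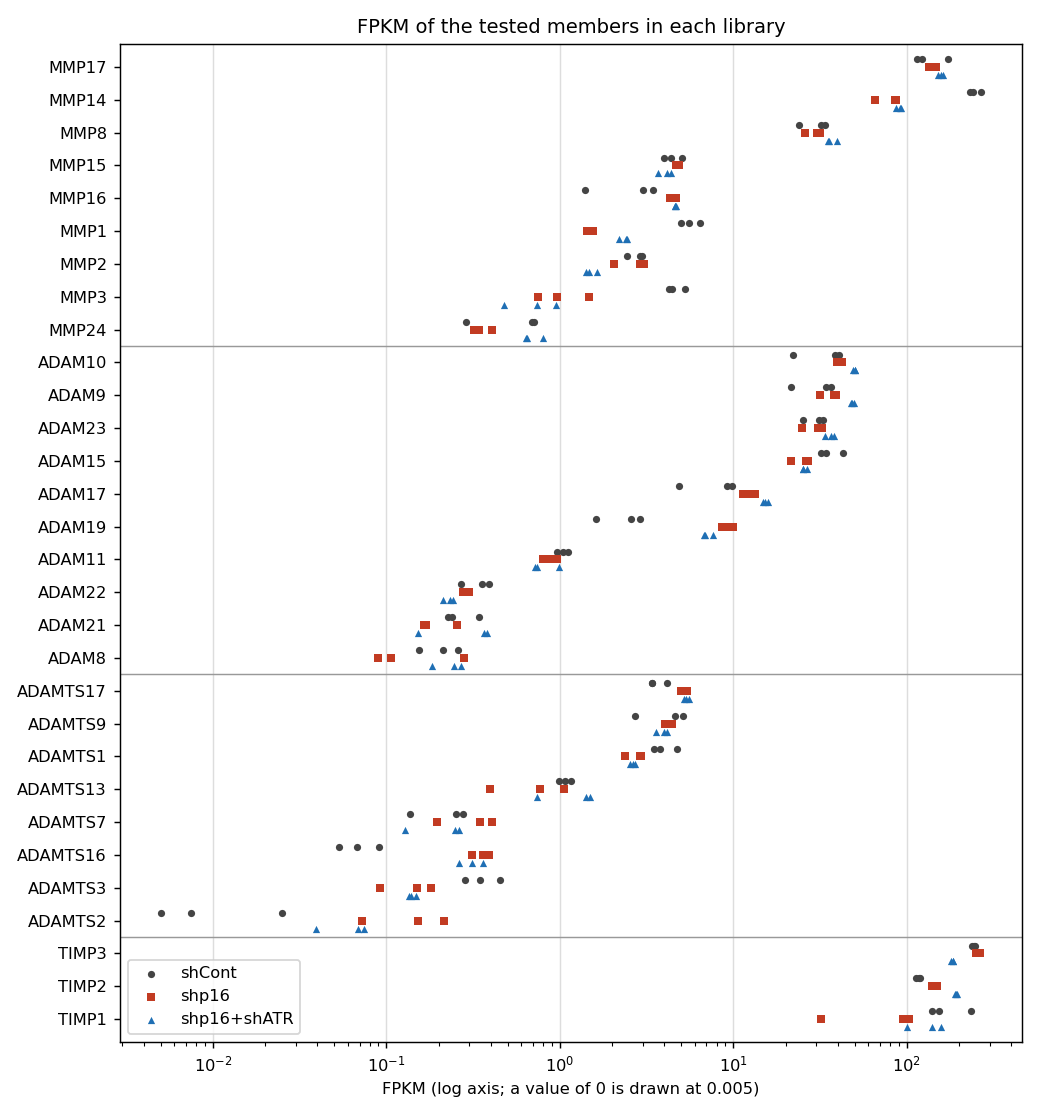
FPKM (log axis) of the 30 tested members in each of the 9 libraries, ordered by family and by mean level, with 1 point per library (circles shCont, squares shp16, triangles shp16+shATR). TIMP3, MMP17, TIMP2, MMP14 and TIMP1 have means over 100 FPKM, while ADAMTS2 has 5 counts in all of shCont.

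The highest levels belonged to inhibitors and membrane-type MMPs. TIMP3, which is held in the matrix and also inhibits ADAM17, had a mean of 228 FPKM, TIMP2 had 152 and TIMP1 128. Among the MMPs, MMP17, a membrane-type protease with a lipid anchor, had 146 FPKM and MMP14, the membrane-type protease that activates pro-MMP2 in a complex with TIMP2, had 139. These made up 43.7% and 41.7% of the summed MMP level. MMP8, called the neutrophil collagenase after the cells in which it was first studied, followed with 32.0 FPKM, 9.61% of the sum, and MMP15 (4.42) and MMP16 (3.91), both membrane-type, came next. MMP8 lies in a run of 9 MMP genes between 102391239 and 102826463 of chromosome 11 (GRCh37, the build whose positions the deposited table holds). In this run 3 genes were over 1 FPKM, MMP8, MMP1 and MMP3, and the highest mean of the other 6 was 0.0411 FPKM.

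ADAM levels were more even. The sheddase ADAM10 had 41.5 FPKM, ADAM9 38.6, ADAM23, which lacks protease activity and binds other surface proteins, 31.8, ADAM15, a protease with an integrin-binding domain, 28.97, and ADAM17, the sheddase of TNF and of several EGF receptor ligands, 11.8. The ADAMTS genes were low: ADAMTS17, linked to fibrillin microfibrils, had 4.75 FPKM, ADAMTS9 and ADAMTS1, which cut proteoglycans such as versican, 4.09 and 3.13, ADAMTS13, which cuts von Willebrand factor, 1.01 and ADAMTS7 0.251. The summed MMP level was 434 ± 46.9 FPKM (SD, n = 3) in the control, 267 ± 21.9 with the p16 hairpin and 298 ± 9.10 with both. The summed TIMP level was 536 ± 47.4, 481 ± 50.8 and 508 ± 30.2 FPKM in the same order, the ADAM level 143 ± 20.0, 155 ± 10.7 and 184 ± 2.94, and the ADAMTS level 13.6 ± 2.05, 14.02 ± 0.990 and 13.9 ± 0.637. The sums give no test of a single gene, and MMP14 alone had a mean of 247 FPKM in shCont and 79.5 in shp16.

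Cells with the p16 hairpin were compared with the control first. MMP14, MMP1 and MMP3 were lower in shp16, by 3.11, 3.81 and 4.31 times, while ADAM19 was 4.00 times higher. Of the 30 members tested, 13 passed an adjusted p of 0.05 (43.3%), 6 of them higher and 7 lower. The share among all 15776 genes tested was 14.8%, with 7.23% higher and 7.59% lower. The members' median log2 fold change was −0.01, against −0.02 over all genes. ADAMTS2 and ADAMTS16 passed the filter on low counts through libraries in which they were high, so their calls follow in part from the filter. Without shCont replicate 1, 15 of 32 members passed (25.9% of all genes did), and without replicate 1 of both shCont and shp16, 16 of 31 (32.7%). With the test restricted to genes with at least 10 counts in every library, 11 of 26 members passed, 4 higher and 7 lower, against 15.7% of all genes tested under that filter.

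MMP14 (ENSG00000157227; chromosome 14, 23305766 to 23318236, plus strand, GRCh37) had 269, 240 and 231 FPKM in shCont and 66.0, 85.6 and 87.0 in shp16. All shp16 libraries lay far below the shCont libraries, and the log2 fold change was −1.64 ± 0.12 (adjusted p = 7.16e-06). MMP1, the interstitial collagenase (ENSG00000196611; chromosome 11, 102660651 to 102668891, minus strand), had 6.43, 5.01 and 5.57 FPKM in shCont and 1.43, 1.56 and 1.47 in shp16, a log2 fold change of −1.93 ± 0.17 (adjusted p = 2.58e-05). MMP3, or stromelysin 1, which can also activate other MMP proforms (ENSG00000149968; chromosome 11, 102706532 to 102714534, minus strand), had 4.42, 4.23 and 5.27 FPKM in shCont and 1.47, 0.965 and 0.744 in shp16. Its log2 fold change was −2.11 ± 0.28 (adjusted p = 0.000483), and the groups did not overlap for any of the 3 genes. These 3 calls and that of ADAM19, 4 of the 13, passed under all 19 alternatives that were run.

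Other MMPs moved less or not measurably. MMP16 had 1.39, 3.03 and 3.43 FPKM in shCont and 4.65, 4.31 and 4.43 in shp16, with replicate 1 of shCont well below the others. Its log2 fold change was 0.79 ± 0.23 (adjusted p = 0.0412), and 0.50 without that library (adjusted p = 0.00256). The call was lost without shCont replicate 2 (adjusted p = 0.0617), without any of the 3 shp16 libraries (0.0808 to 0.134) and without any of the 3 shp16+shATR libraries (0.0637 to 0.0674), which are in neither group compared but share the estimate of the spread and the filter. It was also lost with scaling by library size only (0.0660), with only the compared groups in the fit (0.110) and with limma on log2(FPKM + 1) or log2(FPKM + 0.1) (0.0659 and 0.0754). MMP17, the highest of the MMPs, had 174, 122 and 114 FPKM in shCont and 135, 148 and 146 in shp16, a log2 fold change of 0.07 ± 0.16 (adjusted p = 0.819). Without shCont replicate 1 it was 0.31 (adjusted p = 0.0061), so the call turns on that library. For MMP2, or gelatinase A, the log2 fold change was −0.05 ± 0.16, for MMP8 −0.02 ± 0.12 and for MMP15 0.09 ± 0.13, none of which passed. Without replicate 1 of both groups MMP2 was at 0.13. MMP24, a membrane-type MMP, had 0.288, 0.689 and 0.708 FPKM in shCont and 0.320, 0.342 and 0.408 in shp16. Its log2 fold change was −0.62 ± 0.31 (adjusted p = 0.206), and −0.94 without shCont replicate 1 (adjusted p = 0.0117).

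**Figure D2:**
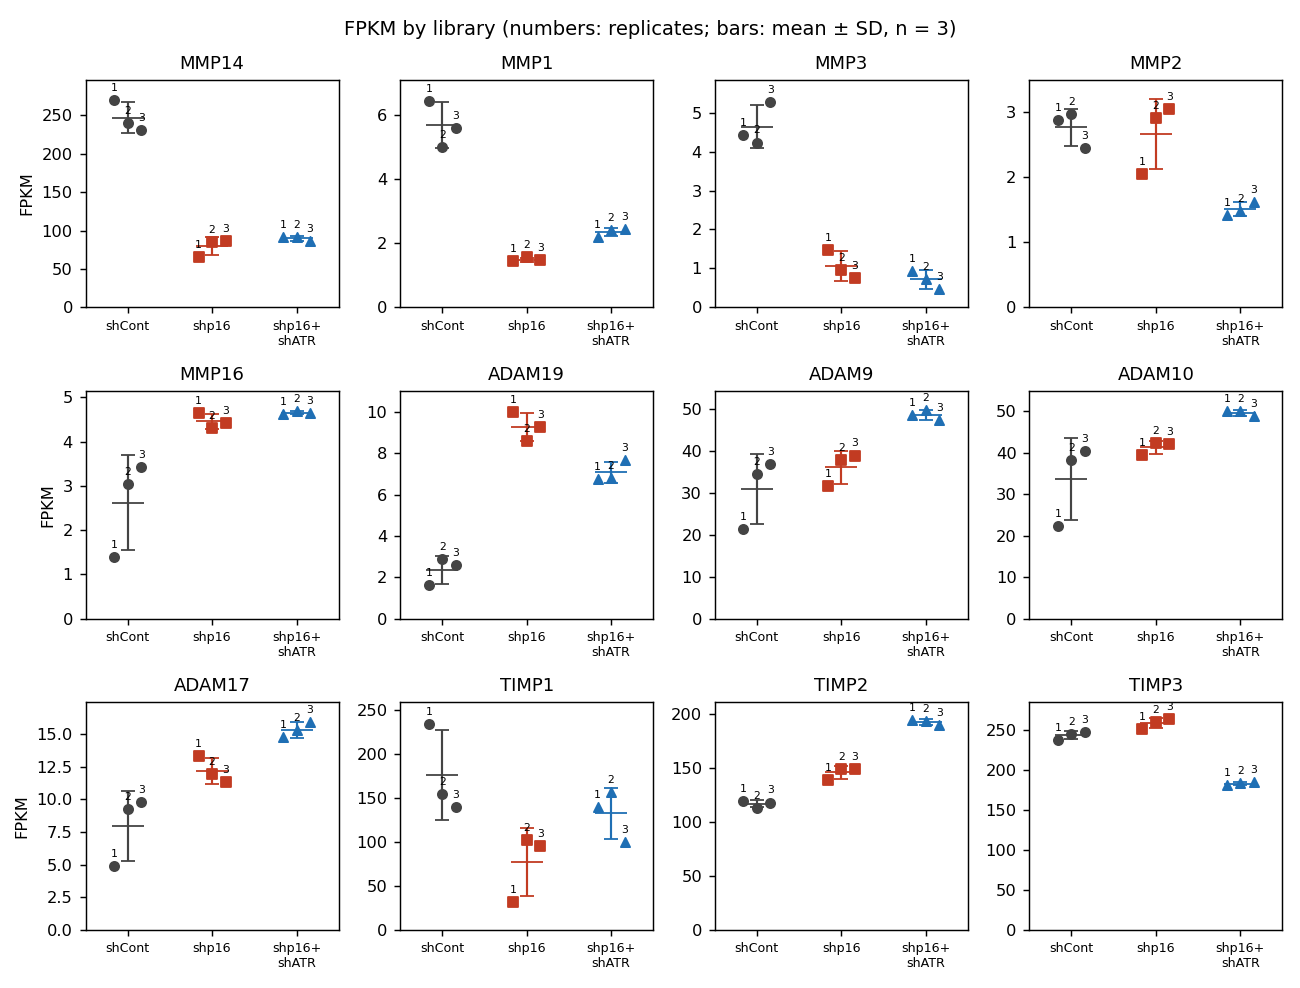
FPKM by library for 12 members in shCont, shp16 and shp16+shATR (numbers beside points are replicates; bars are mean ± SD, n = 3; every axis starts at 0). MMP14, MMP1 and MMP3 are lower in all libraries with the p16 hairpin, ADAM19 is higher in them, and TIMP1 at 31.9 FPKM in shp16 replicate 1 stands apart.

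Among the inhibitors, TIMP1 had 234, 154 and 140 FPKM in shCont and 31.9, 102 and 95.5 in shp16 (ENSG00000102265; chromosome X, 47441712 to 47446188, plus strand). Both groups hold 1 library far from its others, the highest of shCont and the lowest of shp16, and both are replicate 1. The log2 fold change was −1.22 ± 0.35 (adjusted p = 0.0349). It was −0.93 without shCont replicate 1 (adjusted p = 0.0512), −0.87 without shp16 replicate 1 (0.0611) and −0.57 without both (0.000967), so its size depended on these libraries while its sign held. The call was also lost without shp16 replicate 3 (0.0585) and without shp16+shATR library a or b (0.0518 and 0.0517), with scaling by library size only (0.0542), with only the compared groups in the fit (0.0786) and in both limma fits (0.0575 and 0.0582). TIMP2 had 119, 113 and 118 FPKM in shCont and 139, 149 and 149 in shp16, a small difference with tight replicates (log2 fold change 0.33 ± 0.10, adjusted p = 0.0435). Its adjusted p was 0.00341 without shCont replicate 1 and between 0.0628 and 0.143 when any other single library was left out, 0.0935 without a filter on low counts and 0.15 with only the compared groups in the fit. TIMP3 had 238, 245 and 248 FPKM in shCont and 251, 261 and 263 in shp16, and its log2 fold change of 0.09 ± 0.10 did not pass (adjusted p = 0.57).

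ADAM19, also called meltrin beta, which can shed neuregulins (ENSG00000135074; chromosome 5, 156822542 to 157002783, minus strand), had 1.61, 2.90 and 2.59 FPKM in shCont and 9.99, 8.62 and 9.27 in shp16. All shp16 libraries were above all shCont libraries, with a log2 fold change of 2.00 ± 0.18 (adjusted p = 2.77e-05). ADAM15 had 42.7, 34.02 and 32.2 FPKM in shCont and 21.6, 26.3 and 26.9 in shp16, and fell by 0.55 on the log2 scale (SE 0.13, adjusted p = 0.019). That call was lost without any of the 3 shp16 libraries (adjusted p = 0.0507 to 0.0709) and with only the compared groups in the fit (0.0675), and the log2 fold change was −0.38 without shCont replicate 1 and −0.32 without replicate 1 of both groups. ADAM17 had 4.87, 9.24 and 9.81 FPKM in shCont and 13.3, 11.9 and 11.3 in shp16. The groups did not overlap, but the adjusted p of 0.0531 missed the threshold with a log2 fold change of 0.64 ± 0.20, and without shCont replicate 1 it was 0.39 (adjusted p = 0.0189) and without replicate 1 of both groups 0.28 (0.00776). ADAM17 overlaps IAH1, on the opposite strand, and whether reads were counted by strand is not stated. ADAM10 (0.31 ± 0.17), ADAM9 (0.24 ± 0.16) and ADAM23 (−0.01 ± 0.11) did not pass on the log2 scale. Without shCont replicate 1 ADAM10 was at 0.10 and ADAM9 at 0.05 (adjusted p = 0.308 and 0.668).

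Of the ADAMTS genes 5 of 8 passed, all at levels under 6 FPKM, where 14.8% of all genes did. The 5 include ADAMTS2 and ADAMTS16, whose calls follow in part from the filter. ADAMTS17 had 3.42, 4.12 and 3.41 FPKM in shCont and 4.98, 5.31 and 5.41 in shp16 (log2 fold change 0.53 ± 0.11, adjusted p = 0.00622). ADAMTS1 had 3.49, 4.76 and 3.78 FPKM in shCont and 2.39, 2.90 and 2.94 in shp16 (−0.54 ± 0.13, adjusted p = 0.016). The ADAMTS1 call was lost without shCont replicate 2 (adjusted p = 0.0659) or shp16 replicates 1 or 2 (0.0563 and 0.051), with only the compared groups in the fit (0.0625) and in both limma fits (0.0592 and 0.0627). ADAMTS16 had 8, 5 and 9 counts in shCont and 32, 40 and 36 in shp16 (2.30 ± 0.32, adjusted p = 0.000695), too few to be tested with at least 10 counts in every library. Both procollagen N-proteinases tested passed, in opposite directions. ADAMTS2 had 4, 0 and 1 counts in shCont and 10, 21 and 29 in shp16 (3.52 ± 0.71, adjusted p = 0.00669), and ADAMTS3, which also matures the growth factor VEGFC, had 39, 38 and 52 counts in shCont and 11, 18 and 21 in shp16 (−1.34 ± 0.31, adjusted p = 0.0139). The ADAMTS2 log2 fold change was 4.96 without shCont replicate 1, and its call was lost with limma on log2(FPKM + 1) (adjusted p = 0.0688). Where levels were this low, the counts and not the fold set the precision. ADAMTS9 (0.04 ± 0.18), ADAMTS13 (−0.54 ± 0.31) and ADAMTS7 (0.49 ± 0.38) did not pass. Without replicate 1 of both groups ADAMTS13 was at −0.24 and ADAMTS7 at 0.95. ADAMTS9 changed sign without shCont replicate 1 and without replicate 1 of both groups. ADAMTS13 and ADAMTS7 overlap REXO4 and MORF4L1, on the opposite strand, which had 7659 and 74316 counts against 912 and 251 for the proteases.

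Cells with the ATR hairpin added were then set against those with the p16 hairpin alone, using the same shp16 libraries. Here 4 of 30 members passed (13.3%), 2 higher and 2 lower, against 6.22% of all genes tested (2.73% higher and 3.49% lower). TIMP2 and MMP1 rose and TIMP3 and MMP2 fell. The members' median log2 fold change was 0.05, against 0.00 over all genes. None of the 10 ADAM and 8 ADAMTS genes passed in edgeR, with 3 and 2 at an unadjusted p under 0.05. DESeq2 and limma on log2(FPKM + 1) also called 0 of each.

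TIMP2 (ENSG00000035862; chromosome 17, 76849059 to 76921469, minus strand) had 139, 149 and 149 FPKM in shp16 and 195, 193 and 190 in shp16+shATR, a log2 fold change of 0.40 ± 0.10 (adjusted p = 0.0339). TIMP3 (ENSG00000100234; chromosome 22, 33197687 to 33259030, plus strand) had 251, 261 and 263 FPKM in shp16 and 181, 184 and 184 in shp16+shATR, a log2 fold change of −0.50 ± 0.10 (adjusted p = 0.0119). The groups did not overlap for either inhibitor, and the 3 shp16+shATR libraries lay close together. The TIMP2 call was lost when any library but shCont replicates 1 and 3 was left out (adjusted p = 0.0523 to 0.157), and the TIMP3 call without shp16 replicate 3 (0.0508) or any of the 3 shp16+shATR libraries (0.0591 to 0.0988). TIMP1 had 31.9, 102 and 95.5 FPKM in shp16 and 140, 157 and 100 in shp16+shATR, which overlapped. Its log2 fold change of 0.80 ± 0.34 did not pass (adjusted p = 0.216), and without replicate 1 of shCont and shp16 it was 0.45 (0.00452).

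MMP2 (ENSG00000087245; chromosome 16, 55423612 to 55540603, plus strand) had 2.04, 2.91 and 3.05 FPKM in shp16 and 1.42, 1.48 and 1.63 in shp16+shATR, a log2 fold change of −0.82 ± 0.16 (adjusted p = 0.0138). MMP1 had 1.43, 1.56 and 1.47 FPKM in shp16 and 2.20, 2.41 and 2.43 in shp16+shATR, a log2 fold change of 0.65 ± 0.17 (adjusted p = 0.0489). It remained 2.42 times lower in shp16+shATR than in shCont. MMP14 had 66.0, 85.6 and 87.0 FPKM in shp16 and 91.9, 92.0 and 86.6 in shp16+shATR, a log2 fold change of 0.18 ± 0.12 that did not pass (adjusted p = 0.444). MMP3 (−0.59 ± 0.32, and −0.23 without both replicate 1 libraries) and ADAM19 (−0.40 ± 0.17) did not pass either. The MMP2 call was lost without shp16 replicates 2 or 3 (adjusted p = 0.063 and 0.0679) or shp16+shATR libraries a or b (0.0836 and 0.0769), and that of MMP1 without any library other than shCont replicate 1 (0.0542 to 0.16).

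These 4 calls were sensitive to the libraries in the fit. Leaving out single libraries gave 0 to 11 members called: 0 without shp16 replicate 3, shp16+shATR library a or library b (9, 7 and 7 at an unadjusted p under 0.05), 1 without shp16 replicate 2 or shp16+shATR library c, 2 without shCont replicate 2 or shp16 replicate 1, 3 without shCont replicate 3 and 11 without shCont replicate 1. The shares of all genes called moved too: 2.44%, 1.85% and 1.81% for the settings with 0, 2.41% and 2.30% for those with 1, 4.71% and 3.13% for those with 2, 5.94% without shCont replicate 3 and 19.9% without shCont replicate 1. The shCont libraries are in neither group compared. They share the estimate of the spread, and leaving out shCont replicate 1 also changed which genes passed the filter, from 15776 to 16184, and the parts of these in the calls were not separated. Without shp16 replicate 1 as well, 13 of 31 members passed against 26.7% of all genes. Without shCont replicate 1, ADAM10 (log2 fold change 0.26, adjusted p = 0.0102), ADAM9 (0.43, 0.000849), ADAM17 (0.32, 0.0318), ADAM23 (0.30, 0.0121), MMP8 (0.32, 0.00704), ADAM19 (−0.40, 0.014) and MMP24 (0.96, 0.00729), passed besides the 4 genes above. MMP24 overlaps EDEM2 and MMP24-AS1 on the opposite strand, which had 15671 and 10945 counts against 429. ADAM10 had 39.5, 42.4 and 42.1 FPKM in shp16 and 50.1, 49.99 and 48.7 in shp16+shATR, and ADAM9 31.6, 37.9 and 38.9 against 48.6, 49.8 and 47.5, without overlap in either gene.

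**Figure D3:**
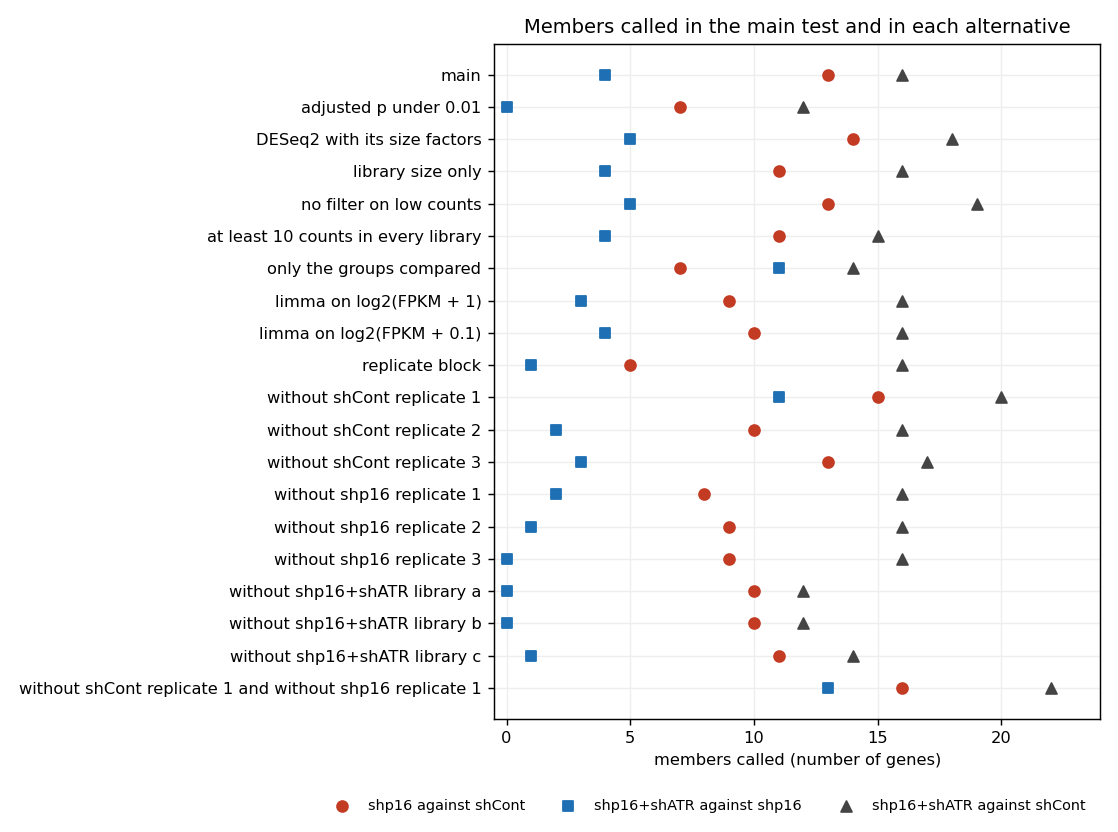
Number of members called in each comparison (x axis, genes) under the main test and each alternative (y axis), with 1 symbol per comparison. Circles (shp16 against shCont) run from 5 to 16, squares (shp16+shATR against shp16) from 0 to 13 and triangles (shp16+shATR against shCont) from 12 to 22.

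**Figure D4:**
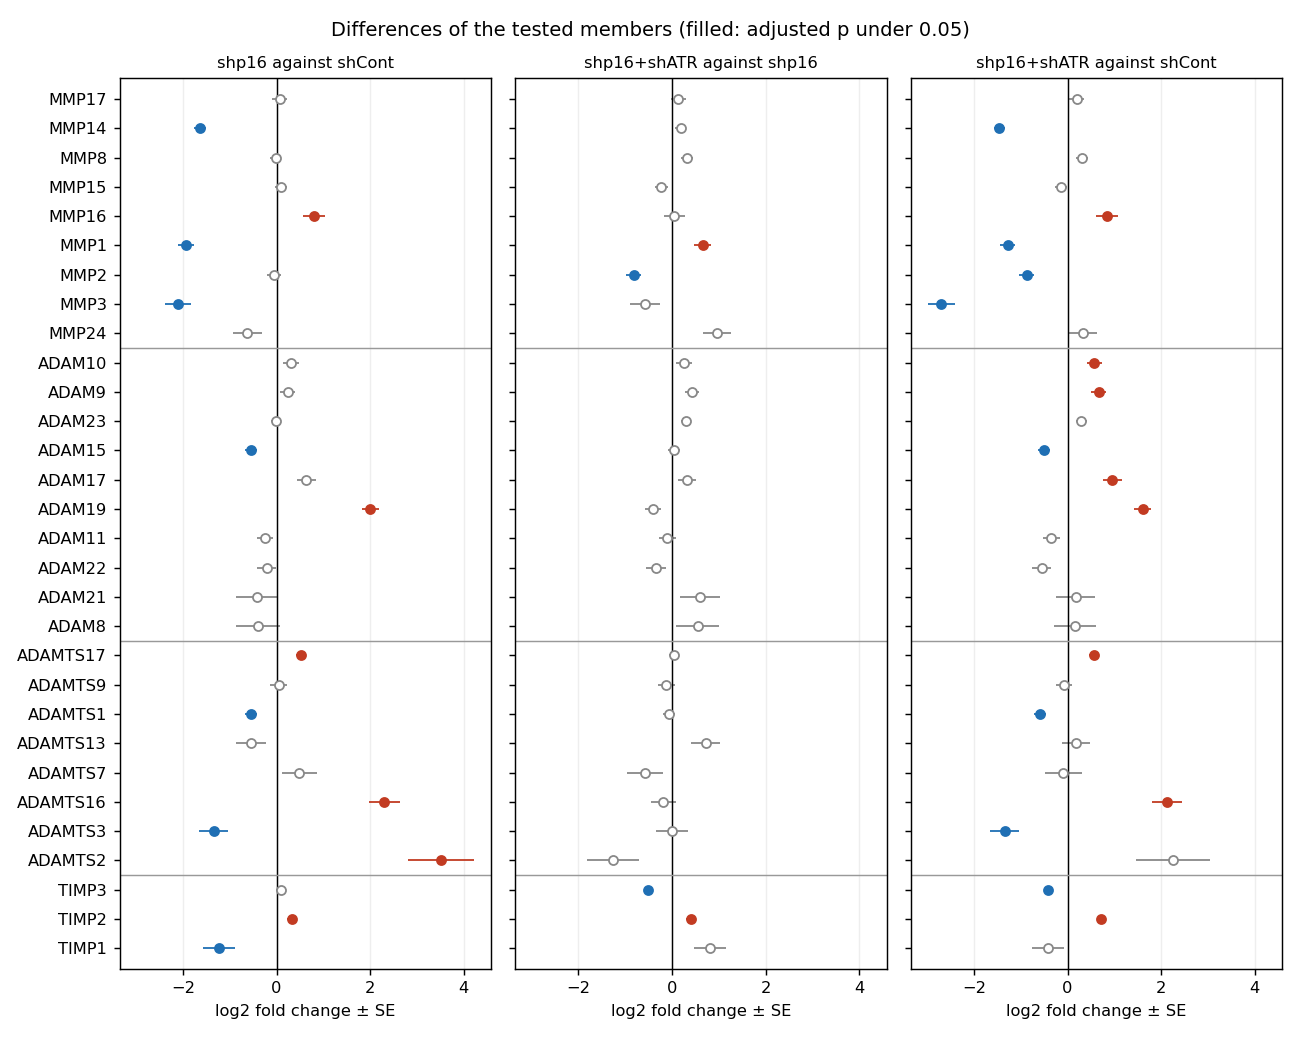
Log2 fold change ± SE from edgeR for the 30 tested members in the 3 comparisons (filled red points are higher and filled blue points lower at an adjusted p under 0.05; open points did not pass). In shp16 against shCont 13 points are filled, in shp16+shATR against shp16 4, and in shp16+shATR against shCont 16.

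The cells with both hairpins were also compared with the control, which uses the libraries of the other comparisons again. Of the 30 members 16 passed (53.3%), 8 higher and 8 lower, against 23.6% of all genes tested (10.9% higher and 12.7% lower). The members' median log2 fold change was 0.16, against −0.02 over all genes. Without shCont replicate 1, 20 of 32 members passed (33.3% of all genes did), and without shp16 replicate 1 as well, 22 of 31 (44.3%). Of the 16 calls, 11 passed under all 19 alternatives that were run, and ADAMTS16 passed in the 18 in which it could be tested.

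Of the sheddases, ADAM10 had 22.2, 38.3 and 40.4 FPKM in shCont and 50.1, 49.99 and 48.7 in shp16+shATR, a log2 fold change of 0.57 ± 0.17 (adjusted p = 0.0276). ADAM9 had 21.4, 34.4 and 36.8 FPKM in shCont and 48.6, 49.8 and 47.5 in shp16+shATR (0.67 ± 0.16, adjusted p = 0.0093). ADAM17 had 4.87, 9.24 and 9.81 against 14.8, 15.3 and 15.9 FPKM (0.96 ± 0.20, adjusted p = 0.00525). In all 3 genes the groups did not overlap and replicate 1 of shCont was the lowest library, and without it the log2 fold changes were 0.36, 0.48 and 0.72 with adjusted p of 0.00165, 0.000432 and 0.000351. The ADAM10 call was lost without any of the 3 shp16+shATR libraries (adjusted p = 0.0763 to 0.0831). ADAM19 was higher by 1.60 ± 0.18 on the log2 scale (6.76, 6.83 and 7.67 FPKM in shp16+shATR, adjusted p = 8.06e-05), and ADAM15 was lower, with a log2 fold change of −0.50 ± 0.13 (25.3, 25.4 and 26.4 FPKM, adjusted p = 0.018). The ADAM15 call was lost without shp16+shATR library a or b (adjusted p = 0.0744 and 0.074).

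MMP14 (log2 fold change −1.45 ± 0.12, adjusted p = 1.18e-05), MMP1 (−1.28 ± 0.16, 0.00022), MMP3 (−2.69 ± 0.29, 7.6e-05) and MMP2 (−0.87 ± 0.16, 0.00263) were lower than in shCont, and MMP16 was higher (0.85 ± 0.23, 0.0219). MMP3 had 0.945, 0.741 and 0.475 FPKM in shp16+shATR and MMP16 4.62, 4.69 and 4.64. Without any of the 3 shp16+shATR libraries the MMP16 call was lost (adjusted p = 0.0601 to 0.0649), and without shCont replicate 1 its log2 fold change was 0.55 (0.000798). TIMP2 was higher by 0.72 ± 0.10 on the log2 scale (adjusted p = 0.000334) and TIMP3 was lower, with a log2 fold change of −0.41 ± 0.10 (adjusted p = 0.0102), a call lost without library a or b (0.0677 and 0.0545). The order of TIMP2 was shCont, shp16, shp16+shATR, with every neighbour apart by more than the spread of the libraries. TIMP1 did not pass (−0.42 ± 0.34, adjusted p = 0.407), and without shCont replicate 1 it was at −0.13 (0.802). MMP17 did not pass either (0.20, adjusted p = 0.405), but did without that library (0.44, 0.000407), as did ADAMTS9 (−0.07, and −0.29 without it, 0.0331). Among the ADAMTS genes ADAMTS16 (2.12 ± 0.33, adjusted p = 0.000806) and ADAMTS17 (0.56 ± 0.11, 0.00256) were higher and ADAMTS1 (−0.60 ± 0.13, 0.00581) and ADAMTS3 (−1.34 ± 0.31, 0.00874) lower, and ADAMTS2 did not pass (2.26 ± 0.79, 0.0595) except without shCont replicate 1 (3.70, 0.0178).

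Other genes of the system were read from lists of activators and inhibitors, partners of ADAM10 and ADAM17, shed substrates and proteoglycan substrates, of which 39 genes were tested. In shp16 against shCont 17 of the 39 passed, 9 higher and 8 lower, where 14.8% of all genes did (7.23% higher and 7.59% lower). Of the 12 activators and inhibitors tested, 4 were lower and 1 higher. PLAUR, the urokinase receptor that focuses plasmin activity at the cell surface, had 51.2, 45.3 and 41.4 FPKM in shCont and 8.72, 17.5 and 18.4 in shp16 (log2 fold change −1.64 ± 0.21, adjusted p = 0.000352). A2M, a broad protease inhibitor, fell by 1.12 ± 0.16 on the log2 scale (adjusted p = 0.000801), TFPI2, an inhibitor of serine proteases, by 1.41 ± 0.15 and PCSK6, a proprotein convertase, by 3.14 ± 0.45, while LRP1, an endocytic receptor that clears MMPs, rose by 0.51 ± 0.14. A2M had 161, 186 and 184 FPKM in shCont and 55.0, 94.2 and 94.6 in shp16. For PLAUR and A2M, shp16 replicate 1 lay well below the others of its group. PCSK6 was low throughout, with 0.471, 0.835 and 0.926 FPKM in shCont and 0.0884, 0.0221 and 0.136 in shp16. Of the 16 shed substrates tested, 6 were higher and 3 lower. The adhesion protein CDH2, which ADAM10 cuts, had 3.99, 4.79 and 5.48 FPKM in shCont and 11.9, 12.3 and 11.9 in shp16 (1.36 ± 0.12, adjusted p = 2.47e-05), the receptor MET rose by 1.12 ± 0.18 and the ligand genes TGFA and NRG1 fell by 1.30 ± 0.21 and 1.39 ± 0.23. The ADAMTS substrates ACAN and VCAN, both proteoglycans, rose by 1.44 ± 0.11 and 1.23 ± 0.21.

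In shp16+shATR against shp16 12 of the 39 passed, 11 higher and 1 lower, where 6.22% of all genes did (2.73% higher and 3.49% lower). This count was 20 without shCont replicate 1 (19.9% of all genes), 7 without shp16 replicates 2 or 3 or shp16+shATR library c (2.41%, 2.44% and 2.30%), and 6 without library b (1.81%). The single gene that fell was FURIN, the convertase that removes the prodomain of MMP14 and of many ADAMs. It had 63.3, 68.4 and 67.2 FPKM in shp16 and 36.6, 35.7 and 37.6 in shp16+shATR (log2 fold change −0.86 ± 0.10, adjusted p = 0.000871), and 62.7, 61.4 and 58.8 in shCont. SERPINE2, a secreted inhibitor of serine proteases, rose by 0.58 ± 0.10 on the log2 scale (adjusted p = 0.00504). PLAUR rose by 1.10 ± 0.21 to 32.3, 32.9 and 29.7 FPKM and A2M by 1.10 ± 0.16 to 179, 184 and 158 FPKM. For both genes shp16 replicate 1 lay well below the others of its group, so the size of the rise leans on it. PLAUR had 8.72 FPKM there against 17.5 and 18.4, and A2M 55.0 against 94.2 and 94.6. RHBDF1 and RHBDF2, the inactive rhomboids that carry ADAM17 to the surface, rose by 0.74 ± 0.19 (adjusted p = 0.0450) and 0.48 ± 0.13 (adjusted p = 0.0487). Both calls lay just under the threshold, and shp16 replicate 1 was again the lowest library of its group. RHBDF1 had 10.6 FPKM there against 19.3 and 18.6, and RHBDF2 10.3 against 13.3 and 12.99. Without replicate 1 of shCont and shp16 the log2 fold change of RHBDF1 was 0.53 (adjusted p = 0.000445). In shp16+shATR against shCont 19 of the 39 passed, 12 higher and 7 lower, where 23.6% of all genes did (10.9% higher and 12.7% lower), with FURIN at −0.73 ± 0.10 and CDH2 at 1.88 ± 0.12.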

How the data were processed

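RNA of SKMEL28 cells was sequenced in 9 libraries, and groups were taken from the sample labels. The authors deposited whole-number read counts for 48162 genes, without normalization, and FPKM values made by dividing these counts by gene length and library total (the deposited FPKM were recomputed from the counts with a largest relative difference of 4.22e-07). The submitters' processing notes list STAR 2.6.1, DESeq2 and build GRCh38, but 0 of the 64 members found in GENCODE v29 had their GRCh38 start and end in the tables, which hold GRCh37 positions. The strand setting of the counting is not given in the sources used here. The 3 count columns of shp16+shATR carry 1 name and are called libraries a, b and c here; by their values they equal FPKM replicates 1, 2 and 3. All sample columns were used.

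Counts were normalized by TMM, filtered by filterByExpr (a minimum count of 10, here 0.500 CPM in at least 3 libraries) and tested with edgeR 4.0.16 in R 4.3.3 by a quasi-likelihood fit of all 9 libraries with 1 coefficient per group. The 15776 genes tested were adjusted together by the Benjamini-Hochberg method, and all tests were two-sided. In a simulated comparison of shp16 against shCont, 64 of 95 genes changed by 1 on the log2 scale and 87 of 94 changed by 2 were recovered. Besides these, 12 unchanged genes were called. The simulation drew the noise of each gene separately and held no library that stood apart, so it does not measure recovery with such libraries. Alternatives used DESeq2 1.42.0 and limma 3.58.1, and python 3.11.15 with pandas 2.3.3 and matplotlib 3.10.9 searched promoters and drew plots. No intervals on counting error are given beyond the SE of the fits.

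Members and gene lists were chosen with earlier results of these data known. Named members are those called in at least 1 comparison, TIMP1 to TIMP4, MMP1, MMP2, MMP9, MMP14, ADAM9, ADAM10, ADAM15, ADAM17, ADAMTS1 and the 5 of highest mean FPKM in each family, and other genes are named from the lists where they passed. ADAM8, ADAM12, MMP24 and MMP25 were named after their values were seen. A planned split by the zinc-binding motif of the proteins was not made, as no protein sequences were used here. Besides the keratinocyte, melanocyte, fibroblast and leukocyte markers, 3 of 4 endothelial markers were in the table, with a summed level of 0.402 to 0.778 FPKM.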

Additional observations from a re-analysis of the deposited data

How the results depend on the processing

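Of 34 called results on single genes (33 on members, and ATR), 15 kept their call in all 19 alternatives, 2 (ADAMTS16 against shCont) in the 18 in which it could be tested, and none changed sign; of 43 results without a call, 10 changed sign at least once. Members called in shp16 against shCont were 13, but 7 at an adjusted p under 0.01, 7 with only the groups compared, and 8 to 16 with libraries left out. In shp16+shATR against shp16 they were 4, but 0 at an adjusted p under 0.01 (12 at an unadjusted p under 0.05 in edgeR, 5 called by DESeq2 and 3 by limma at 0.05), 11 with only the groups compared, and 0 to 13 with libraries left out, the 13 without both replicate 1 libraries of shCont and shp16, a choice made after seeing the data. Other pathway genes called there were 12, but 7 at an adjusted p under 0.01, 20 with only the groups compared and 6 to 23 with libraries left out. The alternatives for the pathway genes were added after seeing the data. The causes were not tested.

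Replicate numbers did not pair the samples: the correlations of same-numbered libraries ran from −0.303 to 0.289. With a replicate block (edgeR on counts for shp16 against shCont, limma on log2(FPKM + 1) for the others, whose count columns carry no number) 5 members were called in shp16 against shCont, 1 in shp16+shATR against shp16 and 16 in shp16+shATR against shCont. Of the other pathway genes the block left 9 called for the p16 hairpin and 6 for the added ATR hairpin, and ATR was at −0.97 (adjusted p = 0.0597).

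CDKN2A in shp16 against shCont passed in 3 of 19 alternatives, among them DESeq2 (−0.47) and no filter on low counts (−0.46). It ran from −0.60 to −0.16 with libraries left out. ATR in shp16+shATR against shp16 did not pass an adjusted p of 0.01 (−1.12), and ran from −1.15 to −1.07. Log2 fold changes near 0 that changed sign were, in shp16 against shCont, ADAM23 (0.0057 without a filter, −0.10 to 0.061 with libraries left out), ADAMTS9 (−0.22 to 0.23), MMP17 (−0.054 to 0.32), MMP2 (−0.14 to 0.13) and MMP8 (−0.13 to 0.075). In shp16+shATR against shp16 they were ADAM15 (−0.017 to 0.079), ADAMTS17 (−0.0065 to 0.067) and ADAMTS3 (−0.00060 by library size only, −0.014 without a filter, −0.0025 with only the groups compared, −0.20 to 0.19 with libraries left out), and in shp16+shATR against shCont ADAMTS7 (−0.34 to 0.20) and ADAMTS9 (−0.29 to 0.11).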
